A study of Mus musculus with 19 samples.

Results

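Expression in EDL muscle (extensor digitorum longus, a fast-twitch muscle of the hindlimb) was described by how far 10 HSALR samples differed from each other. They were the 10 of 19 samples whose titles name HSALR EDL; the other 9 were wild type. All 19 came from FVB mice aged 19 weeks, and both groups share strain, age and muscle. HSALR mice (transgenic line 20 b) express, in skeletal muscle, a human actin transgene that holds an expanded CTG repeat, and 1 such line serves here as a model of myotonic dystrophy. Each sample was read on 1 Affymetrix array. Whether each sample is a separate animal is not stated in the labels. P-values therefore measure the spread between these samples alone, and it may be technical.

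Myotonic dystrophy is caused by RNA with an expanded repeat, which holds back splicing factors of the MBNL family in the nucleus. In muscle the fibres carry most of the RNA, and fibroblasts, macrophages, tendon cells, nerve, vessels and blood add a smaller share. Slow fibres use their own forms of myosin and troponin. Extracellular matrix is made mainly by fibroblasts and remodelled by matrix metalloproteinases. Immediate early genes are transcription factors and their relatives that are switched on within minutes of a stimulus.

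Signal was used as log2(signal + 16) after quantile normalization of the arrays, which gives every array the same distribution of values. A gene was read by its brightest probe set, and 5958 of 18193 genes had a mean level of 8 or more over the 10 HSALR samples. The muscle source was checked against 15 muscle identity genes, such as Ckm, Des and Actn3, which cannot tell EDL from other muscles. They were all at a mean level of 8 or more, and their mean level lay between 13.46 and 13.52 in the 10 samples. The median SD of these 15 genes was 0.057, against 0.196 over all 5958. Levels this high lie near the highest signal of the arrays, and whether that lowers their SD was not tested. Of the defining markers of other sources, those of lymphocytes, epidermis, satellite cells and red blood cells had 0 members at a mean level of 8 or more. The median signal of the arrays ran from 39.7 in sample 5 to 63.6 in sample 2.

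Samples 9 and 10 stood apart from the other 8, so counts of genes by SD, components and groups are given with and without them. Relations were tested over the other 8 and over all 10, and for some only the former is printed. Levels of samples 9 and 10 over the 5958 genes correlated with r = 0.990. Among the 28 pairs within samples 1 to 8, r was 0.955 to 0.984. Between either of samples 9 and 10 and those 8 it was 0.883 to 0.941. These correlations are across genes, which are not independent replicates. No probe set had an identical deposited value in both samples. On the first principal component, which held 55.5% of the variance between the 10 samples, sample 9 scored 28.7 and sample 10 scored 29.1. The other 8 scored between -16.8 and -1.14, with samples 4 and 5 at the far end. The second component, with 14.2% of the variance, had samples 1, 2 and 3 at 10.6 to 12.3 and the remaining 7 below 0. Without samples 9 and 10 the first component held 33.1% of the variance and set samples 1, 2 and 3 (10.2 to 13.1) against the other 5 (-12.0 to -2.99).

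**Figure D1:**
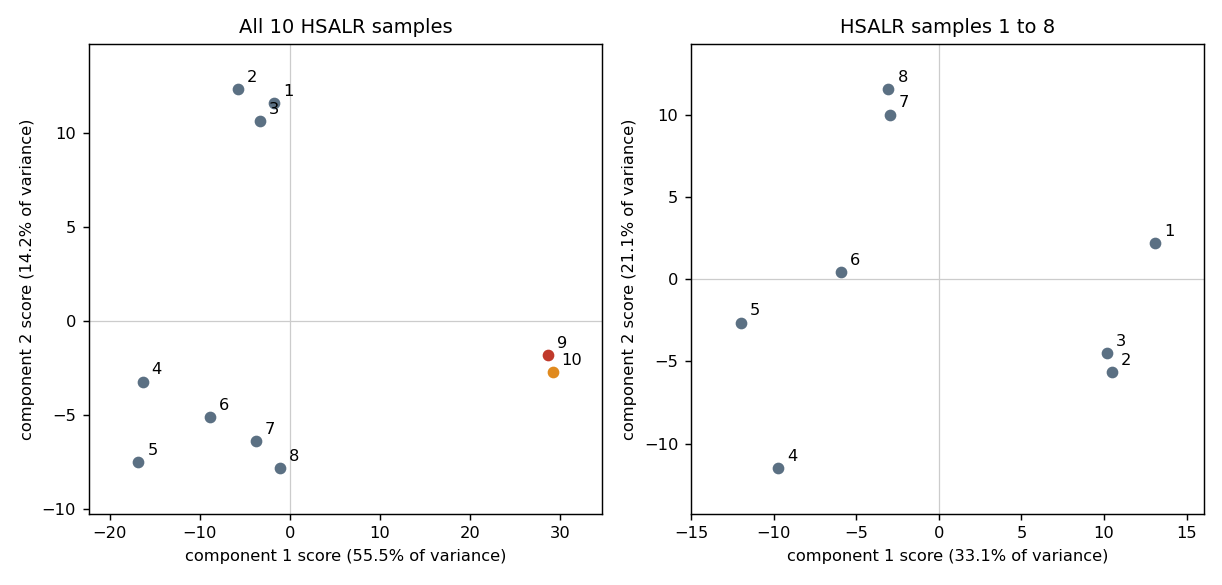
Scores of the HSALR samples, numbered, on the first and second principal components (in log2 units; axis titles give the share of variance) over 5958 genes. In the left panel samples 9 (red) and 10 (orange) lie at 28.7 and 29.1 on the first component and the other 8 lie below 0; the right panel, without them, has samples 1, 2 and 3 above 10 and the other 5 below 0.

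An SD of 1 or more among the 10 samples was found for 35 genes, 0.587% of the 5958. Among samples 1 to 8 it was found for 11 genes, 0.185%. The 9 wild-type samples, read over the same genes, had 16 with an SD of 1 or more, 0.269%. An SD of 0.5 or more was found for 335 genes (5.62%) among the 10 samples and for 132 (2.22%) among samples 1 to 8. The median SD was 0.196 with samples 9 and 10 and 0.162 without them. Of the 35 genes, 26 had samples 9 and 10 both above each of the other 8, 2 had both below, and 7 had neither. Over all genes the first order was found for 921 (15.5%) and the second for 1623 (27.2%). These shares depended on the scaling. The median level of the 5958 genes in samples 9 and 10 was 9.27 and 9.27 after quantile normalization, against 9.28 to 9.31 in the other 8, and 9.47 and 9.53 with values as deposited, inside the range of the other 8, whose highest was 9.61. With the values as deposited 1181 genes had both samples above and 96 had both below, while 26 and 1 of the 35 genes did. The 25 genes of largest SD with and without the pair shared 10 members. Fn1, the matrix glycoprotein fibronectin, lay just inside the limit with an SD of 1.00, and Slc39a14, a zinc transporter, and Tnnc1, the slow troponin C, lay just outside with 0.99 each.

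**Figure D2:**
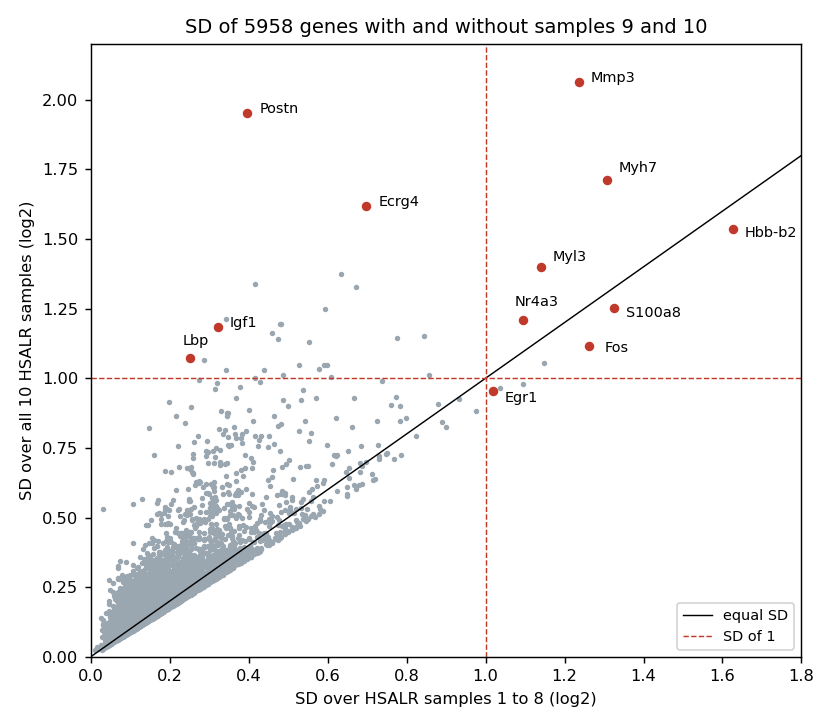
SD of each of 5958 genes (points, log2 units) over samples 1 to 8 on the horizontal axis and over all 10 HSALR samples on the vertical axis, with dashed lines at an SD of 1. Postn rises from 0.40 to 1.95 when samples 9 and 10 are included, whereas Hbb-b2 (1.63 and 1.54), S100a8 and Fos lie below the line of equal SD.

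**Figure D3:**
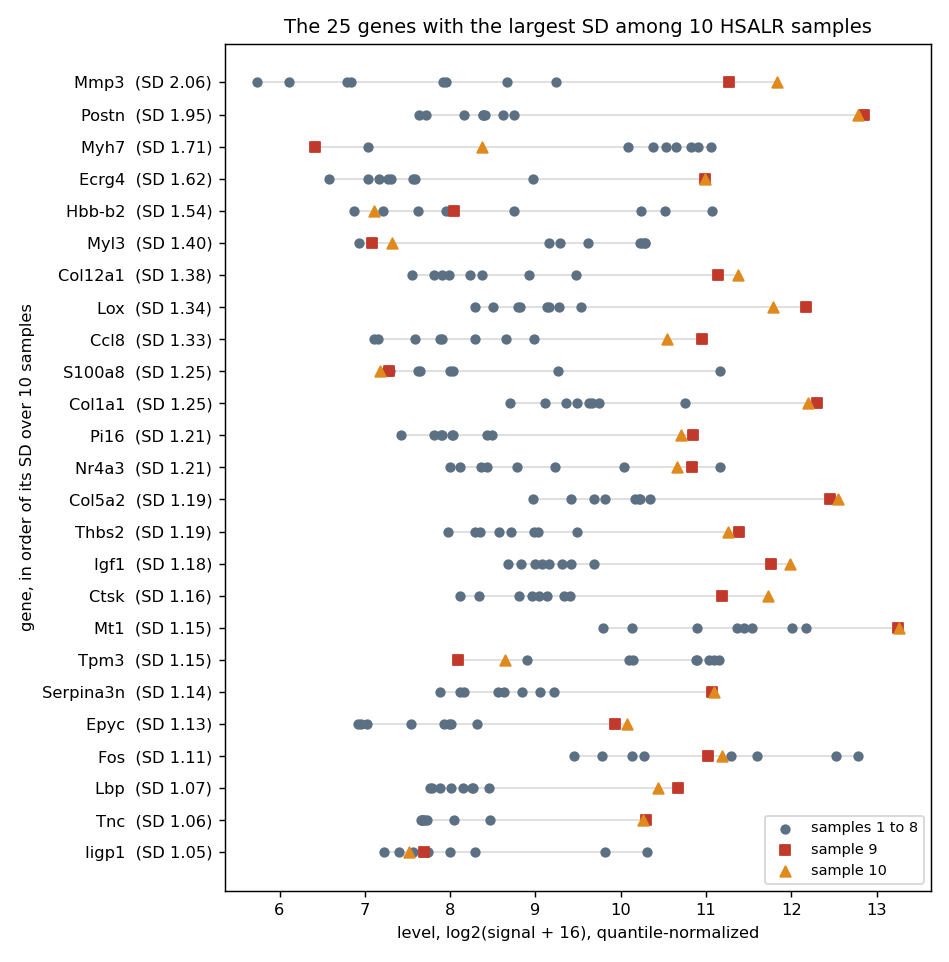
Levels (log2(signal + 16), quantile-normalized) of the 25 genes with the largest SD, one row per gene and one point per sample. In 17 of the 25 genes samples 9 (square) and 10 (triangle) lie to the right of all other points, and in Tpm3 both lie to the left, which does not hold with values as deposited.

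Over the 10 samples, genes of matrix breakdown and matrix building had the largest median SD of the lists (1.03). Without samples 9 and 10 their median was 0.416, below that of slow-fibre genes (0.711) and immediate early genes (0.680). Mmp3, the metalloproteinase stromelysin 1, had the largest SD of all genes (2.06). Its level was 9.24, 7.95, 6.84, 6.11, 5.74, 7.92, 6.79 and 8.67 in samples 1 to 8, 11.27 in sample 9 and 11.83 in sample 10. The highest sample was 68.5-fold above the lowest on the log2(signal + 16) scale, which understates the change of dim genes. Among samples 1 to 8 the same span was 11.4-fold and the SD 1.24, so the gene varied widely with and without the pair. In the 9 wild-type samples Mmp3 lay between 5.40 and 6.71 (SD 0.38).

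Postn, which encodes periostin, a protein of healing and fibrosing matrix, behaved otherwise. Its 8 lower samples lay between 7.64 and 8.74, and samples 9 and 10 were at 12.85 and 12.78. The SD was 1.95 over the 10 samples and 0.40 without the pair, where its rank went from 2 to 269. In wild type its median was 7.93 and its highest sample was at 11.48. Lox, which crosslinks collagen, was at 12.17 and 11.79 in samples 9 and 10 and at 8.29 to 9.53 in the rest. Tnc, the matrix protein tenascin C, was at 10.30 and 10.26 against 7.66 to 8.46. Ctsk, a collagen-cutting protease, was at 11.19 and 11.72 against 8.11 to 9.41. For all 3 the pair stood clear of the other 8. Of the 10 genes of matrix remodelling at a mean level of 8 or more, 9 had samples 9 and 10 highest, 6 had an SD of 1 or more over the 10 samples, and 1 (Mmp3) without the pair. The pair itself helped to choose these members: Mmp3 and Tnc had a mean below 8 over samples 1 to 8 and were kept only through it. Of the 8 members at a mean of 8 or more over samples 1 to 8 alone, 7 had the pair highest, 4 had an SD of 1 or more over the 10 samples, and 0 without the pair. Over all 5917 genes chosen that way the pair was highest in 14.2%. The exception was Adamts1, a protease, which had its highest level in sample 7 (9.43). Just below the mean level of 8, Mmp13, the collagenase, was at 12.80 and 12.94 in samples 9 and 10 and at 4.88 to 8.48 in the others. Timp1, an inhibitor of metalloproteinases, was at 10.50 and 10.25 against 6.72 to 7.83.

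Fibroblast genes followed the same order. All 11 that were bright enough had samples 9 and 10 highest, under quantile normalization and with values as deposited, and 10 of 11 did with arrays centred on their median. Over all 5958 genes the shares were 15.5%, 19.8% and 16.7%. Pi16 was kept only through the pair, and the other 10 were bright enough without it. Col1a1, a chain of type I collagen, was at 12.30 and 12.19 in the pair. Among the other 8 it ran from 8.70 in sample 4 to 10.76 in sample 8. Pi16, a marker of a fibroblast subset, was at 10.85 and 10.71 against 7.42 to 8.49. Col3a1, the type III collagen chain, was at 13.73 and 13.68 against 11.31 to 12.69. Dcn, which encodes decorin, varied least of the bright fibroblast genes (SD 0.29). The mean of the 12 measured fibroblast genes was 11.54 and 11.50 in samples 9 and 10 and 9.58 to 10.57 in the other 8, with sample 4 lowest and sample 8 highest. In bulk tissue, fewer cells of a type and less RNA per cell cannot be told apart. Other secreted proteins behaved like these genes. Igf1, a growth factor, was at 11.76 and 11.98 against 8.68 to 9.68, and Lbp, which binds bacterial lipopolysaccharide, at 10.67 and 10.44 against 7.76 to 8.45.

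Tendon genes were part of the same pattern, but less evenly. Of 8 bright members 6 had the pair highest, against 15.5% of all 5958 genes. Kera, the proteoglycan keratocan, was at 11.62 and 11.79 in samples 9 and 10 and at 8.79 to 10.45 in the rest, with sample 8 highest of those. Tnmd, which encodes tenomodulin of tendon cells, was at 12.16 and 12.43 against 9.83 to 11.47, again with sample 8 next. Chad and Cilp, which encode cartilage matrix proteins, were the exceptions. Chad was highest in sample 8 (9.62) and lowest in sample 4 (7.89), with samples 9 and 10 at 8.58 and 9.22.

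Macrophage genes were high in the same pair of samples as the matrix genes. All 12 bright members had samples 9 and 10 highest under each of the 4 scalings tried, and 11 of 12 had an SD of 0.5 or more over the 10 samples, against 2 of 12 without the pair. Over all 5958 genes the pair was highest in 15.5% to 19.8% under these scalings. An SD of 0.5 or more was found for 5.62% of them with the pair and 2.22% without it. Cd68 was kept only through the pair. Lgals3, a lectin of activated macrophages, was at 10.87 and 11.31 in samples 9 and 10 and at 8.00 to 9.68 in the others. Cd14, the lipopolysaccharide receptor, was at 10.28 and 10.41 against 7.35 to 9.22. C1qa, a complement chain made by resident macrophages, was at 10.80 and 10.93 against 8.96 to 9.64. Adgre1, which encodes F4/80, changed least, at 9.20 and 9.09 against 8.08 to 8.61. Ccl8, a chemokine for monocytes that was on no list, was at 10.96 and 10.54 against 7.11 to 8.98. The mean of the 18 measured macrophage genes was 9.31 and 9.32 in the pair and 7.56 to 8.34 in the others. The antigen-presentation genes H2-Aa and Cd74 were also highest there, H2-Aa at 10.74 and 11.36 against 8.41 to 10.07. Macrophage and matrix leading genes were related past the threshold only with the pair included. An r over the 10 samples can rest on the pair, through which alone Mmp3 was bright enough. P-values over the 10 are therefore a description and no support for a relation. Lgals3 and Mmp3 had r = 0.855 over the 10 samples (permutation, adjusted p = 0.0203), and 0.452 over samples 1 to 8 (exact permutation, adjusted p = 0.594), where r was -0.58 without samples 4 and 5. Lgals3 and Col1a1 had r = 0.834 over the 10 (permutation, adjusted p = 0.0392), and 0.254 over samples 1 to 8 (exact permutation, adjusted p = 0.806), where it was -0.67 without samples 4 and 5.

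An array measure was related over the 10 samples to some leading genes, not all of them from the lists above. The mean log2 ratio of 3' to 5' signal of the actin and Gapdh control probe sets, which rises when RNA is broken or is copied incompletely from its 3' end, was -0.04 in sample 10 and -0.09 in sample 9, and -0.17 to -0.08 in the others. Sample 10 was the highest and sample 9 lay inside the range. The median signal of both arrays (61.5 and 63.4) also lay inside the range of the others. Over the 10 samples the 3'/5' ratio was related to Mmp3 with r = 0.842 (permutation, adjusted p = 0.0185), to Lgals3 with 0.824 (permutation, adjusted p = 0.0266), to Mt1 with 0.779 and to H2-Aa with 0.774 (permutation, adjusted p = 0.0445 for both). Mt1 leads the fasting and glucocorticoid list. Col1a1 and Chad, the leading fibroblast and tendon genes, missed the threshold with r = 0.707 and 0.642 (permutation, adjusted p = 0.106 and 0.171). By rho only that of Mmp3 passed among the 28 relations with array measures. Over samples 1 to 8 Mmp3, Lgals3, Mt1 and H2-Aa had r = 0.773, 0.706, 0.657 and 0.518 and missed the threshold. An r over the 10 samples can rest on samples 9 and 10, through which alone Mmp3 was bright enough. The part of the ratio in the order of samples 9 and 10 was not tested otherwise.

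**Figure D4:**
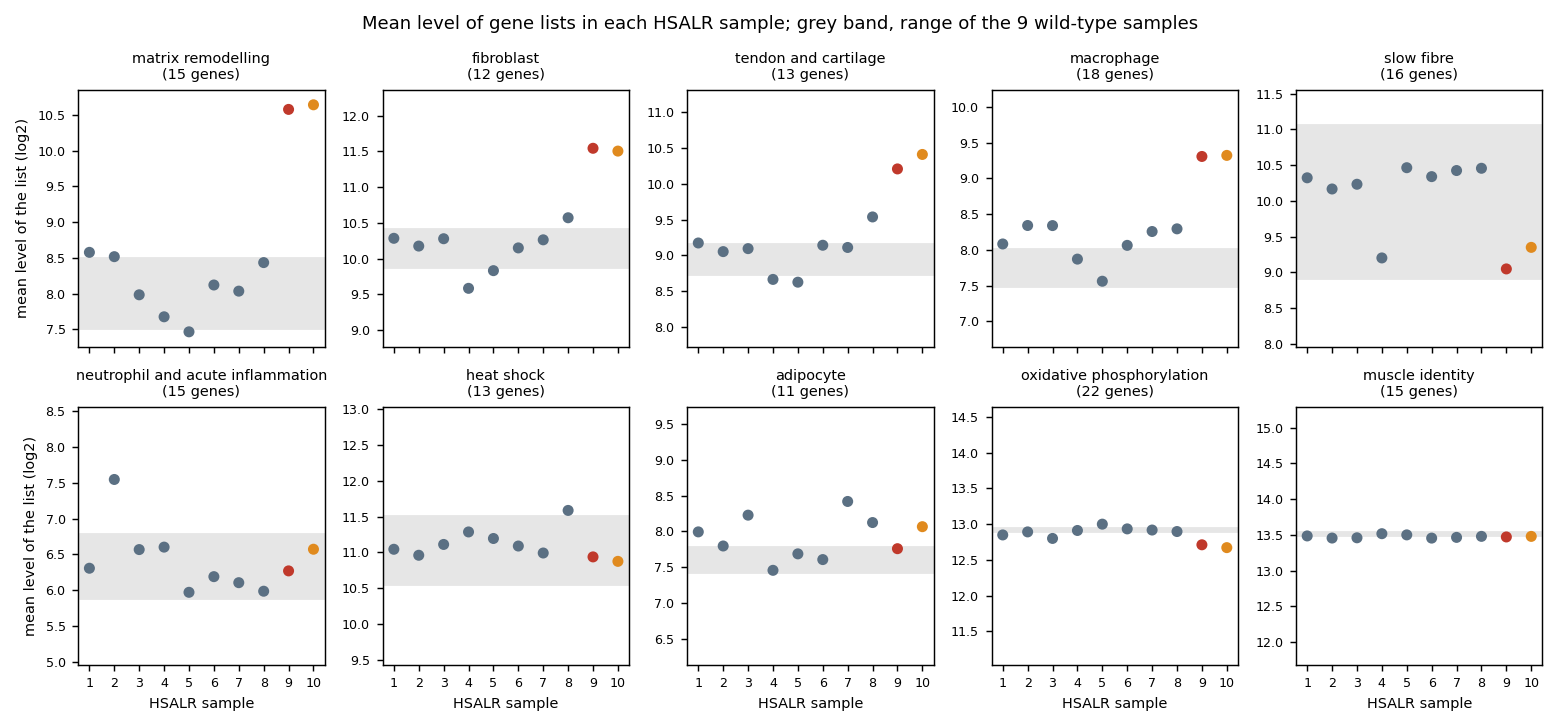
Mean level (log2) of 10 gene lists in each HSALR sample, with sample 9 in red and sample 10 in orange; the grey band is the range of the 9 wild-type samples, and all panels span the same number of log2 units. Matrix, fibroblast, tendon and macrophage genes are highest in samples 9 and 10, slow fibre genes are lowest in samples 4, 9 and 10, the neutrophil list is highest in sample 2, and muscle identity is level.

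Slow-fibre genes were low in 3 samples. Myh7, the slow myosin heavy chain, had the third largest SD (1.71). It was at 10.65, 10.37, 10.08, 7.04, 10.53, 11.06, 10.82 and 10.91 in samples 1 to 8, at 6.41 in sample 9 and at 8.37 in sample 10. Samples 4, 9 and 10 therefore lay below the other 7, and no sample lay between 8.37 and 10.08. Myl3, the slow ventricular light chain, was at 6.93, 7.09 and 7.31 in samples 4, 9 and 10 and at 9.16 to 10.29 in the other 7. Tpm3, the slow tropomyosin, was at 8.90, 8.09 and 8.64 in these 3 samples and at 10.10 to 11.15 in the rest. Tnnt1, Tnnc1 and Tnni1, the slow troponins, were lowest in the same 3 samples. For these 6 slow genes samples 4, 9 and 10 were the 3 lowest under each of the 4 scalings tried. The 6 are only a part of the list. Ankrd2, also on it, was lowest in sample 6 (9.65) and at 10.40 in sample 4. The mean of all 16 measured members was 9.20, 9.05 and 9.35 in samples 4, 9 and 10 and 10.16 to 10.46 in the other 7. The spread did not need the pair, since the SD of Myh7 among samples 1 to 8 was 1.31 with sample 4 alone low. Slow-fibre genes also varied in wild type, where Myh7 ran from 7.57 to 12.24 (SD 1.69). Of 14 bright members 10 had an SD of 0.5 or more with and without the pair, against 5.62% and 2.22% of all genes. The exceptions included Myh2, the fast oxidative myosin (SD 0.20), and Actn2, an actinin of the Z-disc (SD 0.12). Ankrd2 and Csrp3, given below with the stretch-related genes, are on this list and count among the 10. They varied in another order, highest in sample 3.

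Within samples 1 to 8 the slow genes varied together. The level of Myh7 was related to that of Myl3 with r = 0.969 (exact permutation p = 0.00188, 2-sided, adjusted p = 0.0328 over 139 relations) and rho = 0.922 (adjusted p = 0.0915, exact permutation). Without samples 3 and 4, the farthest from the median of Myh7, r was 0.735, lower than with them. A second probe set for Myl3 followed the first with r = 0.993 (exact permutation, adjusted p = 0.0267), and a second for Tpm3 with r = 0.954 (exact permutation, adjusted p = 0.0483). By likeness of pattern over samples 1 to 8, Atp2a2, the slow calcium pump, was nearest to Myh7 (r = 0.988), followed by Btaf1 (0.983), Kank1 (0.973), Myl3 and Tnnc1 (0.960). These 5 were the highest among all genes at a mean level of 8 or more and are a description.

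Metallothioneins varied with and without the pair. Mt1 and Mt2 encode small proteins that bind zinc and copper. Both genes are known to be switched on by glucocorticoids, and by metals through metal response elements in their promoters. Their promoters are shown with matches to TGCNCNC, a pattern looser than that element's core. A match on either strand is printed in capitals (mouse GRCm38.p6, RefSeq, 300 bases around the gene's start, 5' to 3' on its strand). The Mt1 window is at chr8:94178839-94179138 on the plus strand and the Mt2 window at chr8:94172368-94172667 on the plus strand.
Mt1: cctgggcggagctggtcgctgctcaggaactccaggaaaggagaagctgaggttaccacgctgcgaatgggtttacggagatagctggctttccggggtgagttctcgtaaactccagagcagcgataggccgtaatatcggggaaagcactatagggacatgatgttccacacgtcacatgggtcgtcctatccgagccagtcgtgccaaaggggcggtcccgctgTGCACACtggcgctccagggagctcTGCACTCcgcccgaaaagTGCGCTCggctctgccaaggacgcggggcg
Mt2: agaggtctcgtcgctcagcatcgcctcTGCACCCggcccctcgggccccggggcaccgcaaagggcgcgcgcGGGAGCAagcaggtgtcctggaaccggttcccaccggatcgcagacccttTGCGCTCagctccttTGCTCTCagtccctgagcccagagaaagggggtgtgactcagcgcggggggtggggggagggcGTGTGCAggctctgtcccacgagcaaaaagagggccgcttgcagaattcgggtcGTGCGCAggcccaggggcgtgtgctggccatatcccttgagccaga
The Mt1 window held 3 matches and the Mt2 window 6. At least 1 match was found in 51% of 32851 promoters of that length, at least 3 in 7.10% and at least 6 in 0.225%. A match to this looser pattern need not be the element's core. It is a description of these letters and not a bound site. Mt1 was at 11.36, 12.17, 12.01, 10.13, 9.80, 10.90, 11.54 and 11.45 in samples 1 to 8 and at 13.25 and 13.27 in samples 9 and 10. Mt2 was at 10.67 and 10.63 in samples 4 and 5, at 11.71 to 12.74 in the other 6 of that set and at 13.08 and 13.24 in the pair. Both genes were thus lowest in samples 4 and 5 and highest in 9 and 10. Over samples 1 to 8 the genes were related with r = 0.981 (exact permutation p = 0.000521, adjusted p = 0.0267) and rho = 0.881 (exact permutation, adjusted p = 0.0915), and without samples 4 and 5 with r = 0.928. The Mt1 probe set is of a kind that can bind transcripts of related genes, so some of its signal may come from a relative. A second Mt1 probe set missed the threshold (r = 0.810, exact permutation, adjusted p = 0.127), and passed it over the 10 samples (r = 0.831, permutation, adjusted p = 0.0203).

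Lgals3 followed Mt1 more closely than any other pair of leading genes from different lists. Over samples 1 to 8 their r was 0.930 (exact permutation p = 0.00184, adjusted p = 0.0328), rho was 0.881 (exact permutation, adjusted p = 0.0915), and without samples 4 and 5 r was 0.786. Of 91 such pairs it was the 1 past the threshold, against 10 over all 10 samples. The median r of the 91 was 0.23.

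Heat shock genes formed a pattern of their own. Hspa1a and Hspa1b encode nearly identical forms of the inducible chaperone HSP70, and their probe sets can share signal. Their promoters, which differ at few places, each held 1 match to the core of a heat shock element, GAANNTTC, the site of heat shock factor, printed in capitals. The motif reads the same on both strands, and 7.86% of promoters held it. The Hspa1a window is at chr17:34972107-34972406 on the minus strand and the Hspa1b window at chr17:34959189-34959488 on the minus strand.
Hspa1a: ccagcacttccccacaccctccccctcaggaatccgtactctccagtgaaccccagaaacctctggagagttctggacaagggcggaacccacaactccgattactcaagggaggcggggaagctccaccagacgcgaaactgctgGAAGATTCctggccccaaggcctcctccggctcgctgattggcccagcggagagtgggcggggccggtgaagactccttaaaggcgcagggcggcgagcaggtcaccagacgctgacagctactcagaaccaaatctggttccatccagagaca
Hspa1b: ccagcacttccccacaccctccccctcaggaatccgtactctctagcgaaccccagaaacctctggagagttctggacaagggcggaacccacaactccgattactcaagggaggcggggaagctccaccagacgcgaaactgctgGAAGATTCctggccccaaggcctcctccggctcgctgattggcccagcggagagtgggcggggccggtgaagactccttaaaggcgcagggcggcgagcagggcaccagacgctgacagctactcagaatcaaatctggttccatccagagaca
Hspa1b was at 12.30 in sample 8, 11.53 in sample 4 and 11.13 in sample 6, and at 9.99 to 10.71 in the other 7, samples 9 and 10 included. Hspa1a was also highest in sample 8 (10.98) and next in sample 4 (10.05). Dnajb1, a co-chaperone of HSP70, was at 9.67 and 9.66 in samples 4 and 8 and at 8.29 to 9.29 in the rest. Over samples 1 to 8, r between Hspa1b and Hspa1a was 0.943 (exact permutation p = 0.00124, adjusted p = 0.0328) and rho was 0.881 (exact permutation, adjusted p = 0.0915); without samples 4 and 8 r was 0.767. Of 13 heat shock genes, 3 had an SD of 0.5 or more with and without samples 9 and 10, against 5.62% and 2.22% of all genes.

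Neutrophil and acute inflammation genes were high in sample 2. S100a8, an alarmin of neutrophils, was at 11.17 there, at 9.27 in sample 4 and at 7.18 to 8.03 in the other 8. Its SD was 1.33 without samples 9 and 10 and 1.25 with them, and 0.658 without sample 2, on which its spread mainly rests. Cxcl1, a chemokine for neutrophils, was at 10.17 in sample 2, and the other 9 ranged upward from 7.73, with sample 10 the highest of them. Below the mean level of 8, S100a9, the partner of S100a8, was at 11.06 in sample 2 and at 6.16 to 8.61 in the rest, and Il1b was at 9.28 against 6.07 to 7.13. The mean of the 15 measured members was 7.55 in sample 2 and 5.97 to 6.60 in the other 9. S100a8 and Cxcl1 had r = 0.938 over samples 1 to 8 and missed the threshold (exact permutation p = 0.00548, adjusted p = 0.0635). Socs3, a feedback inhibitor of cytokine signals, was at 10.45 in sample 2, 9.99 and 9.77 in samples 9 and 10, and 8.06 to 9.06 in the rest.

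Immediate early genes varied in more than 1 way. Fos, a subunit of the AP-1 transcription factor, was at 12.78 and 12.52 in samples 2 and 4 and at 9.45 to 11.59 in the other 8. Its SD was 1.11 over 10 samples and 1.26 without samples 9 and 10, which lay in the middle. Egr1, a zinc finger factor, was at 12.18 in sample 2 and 9.38 to 11.48 elsewhere. Klf2, a factor of vessel-lining cells among others, was highest in samples 7 (10.14) and 4 (9.98). Nr4a3, an orphan nuclear receptor, had another order. It was at 11.17 in sample 6, 10.83 and 10.65 in samples 9 and 10 and 10.04 in sample 8, and at 8.00 to 9.23 in the other 6. Fos and Nr4a3 were not related in samples 1 to 8 beyond their spread (r = -0.08, exact permutation, adjusted p = 0.91). Of 17 bright genes of this list, 12 had an SD of 0.5 or more with the pair and 13 without it, against 5.62% and 2.22% of all genes. Ier2 (r = 0.937), Jun (0.936), Fam189a2 (0.872), Dusp1 (0.861) and Adamts1 (0.857) were nearest to Fos in pattern over samples 1 to 8.

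The blood genes Hbb-b2 and Alas2 were high in samples 1, 2 and 3, and the stretch-related genes given here were highest in sample 3. Hbb-b2, a beta globin, had the largest SD among samples 1 to 8 (1.63). It was at 10.24, 11.07 and 10.52 in samples 1 to 3 and at 6.88 to 8.74 in the other 7. This value is uncertain, because the probe set can bind several globin transcripts and the second Hbb-b2 probe set did not follow it (r = -0.31, exact permutation, adjusted p = 0.777). Alas2, the first enzyme of heme synthesis in red cell precursors, lay below the mean level of 8. It was at 8.94, 9.78 and 8.79 in samples 1 to 3 and at 5.71 to 7.48 in the other 7. The mean of the 4 measured red blood cell genes, Alas2 included, was 6.12, 6.78 and 6.01 in samples 1 to 3. In the other 7 it was 5.29 to 5.88, so samples 1 and 3 lay only a little above sample 7 (5.88) by this mean. Ankrd2, a stretch-responsive protein of the sarcomere, was at 12.65 in sample 3, 11.28 in sample 2 and 9.65 to 10.66 in the rest. Its relative Ankrd1 was at 11.08 in sample 3 and 8.78 to 9.93 in the rest. Csrp3, a muscle LIM protein, was at 13.39 in sample 3 and 11.41 to 12.82 in the rest. Mybph, a myosin-binding protein, was highest in sample 3 too (12.25), with 9.94 to 11.38 in the other 9. Sample 3 thus led these 4 genes, which do not stand for sarcomere genes in general. Myh7 was at 10.08 in sample 3 and highest in sample 6 (11.06). The mean of the 15 muscle identity genes was 13.46 in sample 3 and highest in sample 4 (13.52). The mean of the immediate early and stretch list was 8.82 in sample 3 and highest in sample 2 (9.70). Dbp, a circadian output factor, was at 10.53, 11.15 and 10.66 in samples 1 to 3 and at 9.11 to 9.96 in the other 7.

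Some genes of fat cells and 1 interferon-induced gene split the samples in further ways. Scd1, which makes unsaturated fatty acids, was at 11.61 in sample 7 and 8.99 and 9.13 in samples 5 and 4. Fabp4 and Car3, the other bright genes of the fat cell list, varied little (SD 0.24 and 0.08). Adipoq, the fat cell hormone adiponectin, lay below the mean level of 8. It was at 8.12 to 9.43 in samples 1, 2, 3, 7, 8 and 10, at 7.24 in sample 9 and at 6.12 to 6.60 in samples 4, 5 and 6. Cyp2e1, an oxidising enzyme of liver and fat, was at 10.03 in sample 3 and lowest in samples 4, 5 and 6 (from 7.06 in sample 5). Iigp1, an interferon-induced GTPase on no list, was at 10.30 in sample 4 and 9.81 in sample 1, and at 7.22 to 8.29 in the other 8. The interferon and antigen presentation list had another order. Its 3 bright members all had samples 9 and 10 highest, against 15.5% of all genes. The mean of its 13 measured members was 7.43 and 7.55 in samples 9 and 10 and 7.17 in sample 4. G0s2, an inhibitor of fat breakdown, was at 10.44 and 9.90 in samples 4 and 5 and lowest in samples 9 and 10 (7.50 and 7.44).

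Genes of energy metabolism varied little. The median SD was 0.131 for 22 oxidative phosphorylation genes and 0.146 for 15 glycolysis genes. Sdhc, a subunit of succinate dehydrogenase, had the largest SD of the first list (0.31), at 10.21 and 10.26 in samples 9 and 10 and 10.49 to 11.13 in the others. Samples 9 and 10 were both lowest in 13 of the 22 and in 6 of the 15 after quantile normalization, against 27.2% of all 5958 genes. With arrays centred on their median this was 7 and 3, against 9.35% of all genes. With values as deposited it was 0 and 0, against 1.61%, so that order rests on the scaling. For ribosomal protein genes the pair was highest in 6 of 9 after quantile normalization, against 15.5% of all genes. With values as deposited it was highest in 2 of 9, against 19.8%, and with arrays centred on their median in 1 of 9, against 16.7%.

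Among the 100 genes of largest SD over samples 1 to 8, average linkage on r gave 8 groups of 4 or more genes. These groups were chosen on the values and carry no test. A group of 19 held Hbb-b2, Ankrd2, Ankrd1, Mybph, Csrp3 and Dbp, with mean deviations of 0.50, 0.74 and 0.88 in samples 1 to 3 and below 0 in the other 7. Another 19 held Mmp3, Cyp2e1, Mt1, Mt2, Thbs1, Sln, Lgals3 and Cd14, with -0.84 and -0.94 in samples 4 and 5. The samples not used to form it had 1.37 and 1.49 in this group. The slow-fibre genes made a group of 8 with a median r of 0.958, at -1.81 in sample 4 and, outside its choice, at -1.57 and -1.09 in samples 9 and 10. Fscn1, which encodes an actin-bundling protein, was in that group but differed in the pair, at 10.39 and 10.32 against 8.02 to 9.51. S100a8, Egr1, Zfp36, Cxcl1, Socs3 and Junb were in a group of 8 led by sample 2 (1.52). Fos, Klf2, Dusp1 and Ier2 were in a separate group of 7, lowest in sample 6 (-1.04). Col1a1, Col12a1, Ecrg4, Epyc and Pdk4 were in a group of 6, highest in sample 8 (1.09) within samples 1 to 8 and at 2.24 and 1.92 in samples 9 and 10. Nr4a2 was in a group of 6 and Irs2, Chad, Gadd45b and Nfil3 made a group of 4. With samples 9 and 10 included, the 100 genes of largest SD gave 3 groups. The first had 80 genes, with Mmp3, Postn and Col1a1 together with Lgals3, Mt1 and Igf1, and stood at 1.61 and 1.66 in the pair. The second had the 5 slow genes Myh7, Myl3, Tpm3, Tnnc1 and Tnnt1, and the third had Hbb-b2, Cyp2e1, Prelid3a and Ankrd2.

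**Figure D5:**
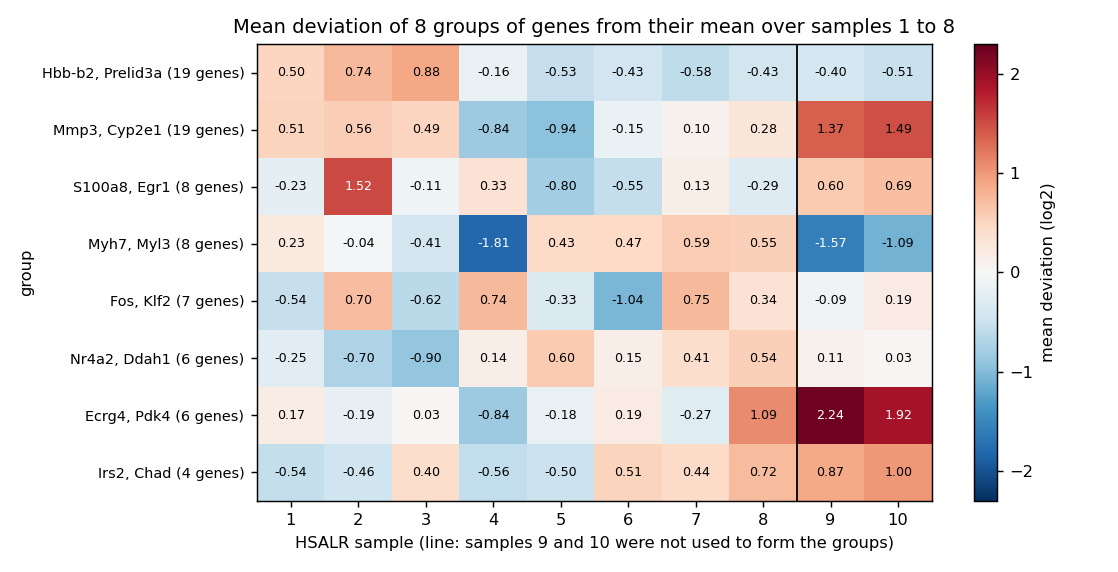
Mean deviation (log2, colour and number) of 8 groups of genes from their mean over samples 1 to 8, one row per group named by its leading 2 genes and one column per HSALR sample; samples 9 and 10, right of the line, did not form the groups. The Mmp3 group is at 1.37 and 1.49 and the slow-fibre group at -1.57 and -1.09 in samples 9 and 10.

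Relations were tested over samples 1 to 8 by exact permutation of all 40320 pairings, 2-sided, with Benjamini-Hochberg adjustment over 139 relations. By r, 11 passed an adjusted p of 0.05 and 24 had an unadjusted p under 0.05; by rho 1 passed. Of the 11, 7 were 2 probe sets of 1 gene (Col1a1, Col5a2, Igf1, Lox, Myl3, Thbs2 and Tpm3), which check the measurement, and the other 4 were those of Myh7, Mt1, Lgals3 and Hspa1b above. Mmp3 with Thbs1, an adhesive matrix protein, had r = 0.850 and missed (exact permutation, adjusted p = 0.0926), whereas over the 10 samples it passed (r = 0.909, permutation, adjusted p = 0.00308). Mybph with Sln, a small inhibitor of the calcium pump, also missed (r = 0.631, exact permutation, adjusted p = 0.382). So did Dbp with Nfil3, a circadian repressor (r = -0.17, exact permutation, adjusted p = 0.87). Of 28 relations between a leading gene and the array median or the 3'/5' ratio, 0 passed over samples 1 to 8 by r (exact permutation) and 0 by rho, and 4 had an unadjusted p of r under 0.05. This does not show that they are unrelated, since r reached 0.776. Mmp3 with the 3'/5' ratio had r = 0.773 (exact permutation, unadjusted p = 0.0246, adjusted p = 0.191). Over all 10 samples, samples 9 and 10 lie apart and a pooled r can rest on them. Mmp3 was bright enough only through this pair. P-values over the 10 are therefore a description and no support for a relation. By r, 28 relations passed over the 10 (100000 permutations), the 11 included. The 17 added were 2 of a list's leading gene with its second, 9 between leading genes of different lists, 4 with the 3'/5' ratio and 2 of probe sets. Of the 9, 8 were pairs among Mmp3, Col1a1, Lgals3, Mt1 and H2-Aa, such as Col1a1 with Mmp3 (r = 0.915, permutation, adjusted p = 0.00764), which over samples 1 to 8 had r = 0.670 (exact permutation, adjusted p = 0.307). The last was Mybph with Dbp (r = 0.769, permutation, adjusted p = 0.049). Lgals3 with Cd14 also passed only with the pair (r = 0.957, permutation, adjusted p = 0.000695, against r = 0.832, exact permutation, adjusted p = 0.0926).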

How the data were processed

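Total RNA of 19 EDL samples was made into biotin-labelled cRNA and read on 1-colour arrays, per the labels' protocols. For each array the authors deposited signal intensity on a linear scale for 45101 probe sets. Per the submitters' processing notes GCOS 1.4 was used, with algorithm and scaling not given in the sources used here. The number of arrays limits the precision.

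The 64 control probe sets were left out. Values were taken as log2(value + 16) and quantile-normalized over all 19 arrays. The platform annotation gave 1 gene symbol for 34945 probe sets, of which 34754 were updated through the Entrez identifier, and several for 932, which were not named. A gene was read by its probe set of highest mean over the 19 samples, and genes were kept at a mean of 8 or more over the 10 HSALR samples. SDs, ranks, principal components and groups (average linkage on 1 - r, distance 0.4) are descriptions, and HSALR was not tested against wild type.

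Relations were tested over HSALR samples 1 to 8 by exact permutation of Pearson's r and Spearman's rho, with Benjamini-Hochberg adjustment, and over all 10 samples by 100000 permutations. The family held, for each of 26 lists, the member of largest SD with the second (both SDs of 0.5 or more), these 14 leading members with each other and with 2 array measures, and genes of large SD with their second probe set. Code was tested on simulated data. Named genes were the 25 of largest SD with and without samples 9 and 10, up to 4 members of each list by SD, the leading members, the nearest genes of 5 genes and the defining markers; others were chosen after their values were seen. Members and lists were chosen with earlier results of these data known. Promoters came from RefSeq, GRCm38.p6. Python 3.11.15, numpy 2.4.6, pandas 2.3.3, scipy 1.17.1 and matplotlib 3.10.9 were used.

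Alternatives were pseudocounts of 1 and 64, other scalings, mean levels of 7 and 9, all probe sets, other measures of spread, and leaving out or averaging samples. The order of samples 9 and 10 under other scalings, and with genes chosen by their mean over samples 1 to 8, was counted after the data had been seen.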

Additional observations from a re-analysis of the deposited data

Results flagged for a closer look

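Of 78 sets of 10 values checked (52 genes, 24 list means and 2 array measures), 4 had 1 sample whose gap to its nearest neighbour was more than 0.47 of the whole range. Chance alone gives about 1 in 20 such sets, and several of these sets share genes. Sample 2 was highest for S100a8 (11.17), for Cxcl1 (10.17) and for the mean of the neutrophil and acute inflammation list (7.55), which holds both genes. Sample 9 was highest for the mean of the Schwann cell and nerve list (7.44). In that list Mbp, which encodes myelin basic protein, was at 10.71 in sample 9 and at 8.95 to 9.93 in the other 9, while Pmp22, another myelin protein, was at 11.33 in sample 9 and 11.05 in sample 10.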

How the results depend on the processing

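No paired analysis was possible because all samples compared belong to 1 group. The number of genes with an SD of 1 or more among the 10 samples (35) was 56 with values as deposited, 56 at a mean level of 7 or more, 22 at 9 or more, 53 over all probe sets, 17 with samples 9 and 10 averaged and 11 without them. Leaving out 1 sample at a time gave 18 (without sample 9) to 44 (without sample 8), and 20 without sample 10. The number without samples 9 and 10 (11) was 18 at a mean level of 7 or more and 5 at 9 or more, and 8 to 11 with 1 more sample left out. Of the 25 genes of largest SD, 13 and 14 remained among the 25 at mean levels of 7 and 9 or more, 10 without samples 9 and 10, 8 by the median absolute deviation, and 20 to 25 with 1 sample left out. The first component's share (55.5%) was 33.1% without samples 9 and 10 and 45.2% to 60% with 1 sample left out. The 11 relations past an adjusted p of 0.05 became 28 over all 10 samples, 18 with samples 9 and 10 averaged and 1 by rho, and 0 to 8 with 1 sample left out (exact permutation; 0 without sample 2, 3 or 5). All 11 kept their sign under every setting run. Of the 25 genes, the SD of 16 moved by more than 1.5 times when samples 9 and 10 were left out, and that of S100a8 (1.25) was 0.658 without sample 2. Choosing genes by their mean over samples 1 to 8, an alternative added after the data had been seen, gave 29 and 10 genes with an SD of 1 or more with and without the pair.

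The labels give no scan, extraction or hybridisation batch, so none could be tested. With 8 samples, a relation that missed the threshold may still exist. Levels near the lowest signals of the arrays, such as those of Mmp13 or Alas2 in some samples, are less certain than bright ones. Bright genes above 13 lie near the highest signal (17125.5 before scaling), and saturation was not tested.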

Other observations

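Of 24 genes already known from earlier results on these samples to differ in HSALR muscle, 15 were bright enough. Among the 10 HSALR samples 3 of these had an SD of 0.5 or more, against 5.62% of all genes, and 0 had an SD of 1 or more. That list is no independent evidence. Sln, which encodes sarcolipin, an inhibitor of the calcium pump, ran from 9.07 in sample 5 to 11.02 in sample 9 (SD 0.68). Rian, a long noncoding RNA of an imprinted cluster, was lowest in sample 10 (7.77) and highest in sample 4 (9.59). Dkk3, a secreted relative of Wnt inhibitors, lay below the mean level of 8 and was at 7.95 and 8.21 in samples 9 and 10 and at 5.97 to 6.60 in the other 8.

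Genes of the fasting and glucocorticoid list took different orders. Pdk4, which limits the use of glucose in mitochondria, was at 11.07 in sample 4 and 11.76 to 13.20 elsewhere. Ddit4, an inhibitor of the mTOR pathway, was highest in samples 9 and 10 (12.27 and 12.51). Angptl4, an inhibitor of lipoprotein lipase, lay below the mean level of 8 and was at 9.70 and 9.53 in samples 9 and 10 and at 5.79 to 7.43 in the others. Fbxo32, a ubiquitin ligase of atrophy, was highest in samples 6 and 7 (11.15 and 10.97). Kdr, a growth factor receptor of vessels, was lowest in samples 9 and 10 (7.95 and 7.94) and at 8.09 to 9.30 in the others. This order was found for Kdr alone of 6 bright vessel genes, and for 0 of 6 with values as deposited or arrays centred on their median.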
